A study of Mus musculus with 4 samples.

Results

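Cycling microglia and macrophages were 165 of the 8018 cells kept in 4 libraries, chosen by their UMI counts as cells that carried the macrophage receptor gene Csf1r and at least 3 of 6 genes of dividing cells: Mki67, Top2a, Birc5, Cdk1, Cenpf and Ube2c. Among them, 139 cells had at least 2 of 4 microglia genes detected (Sall1, Siglech, P2ry12 and Tmem119) and are called cycling microglia. The 26 cells left are called the other cycling cells. CD11b-positive cells had been taken with microbeads from a 4 mm punch of mouse brain, and their RNA was counted at the 3′ end in single cells as unique molecular identifiers (UMIs). The mice were 8 to 12 weeks old and were labelled IL6 WT (+/+) or KO (-/-). They were studied 6 days after sham surgery or 6 days after cerebrovascular injury, made by pulsed ultrasound with injected microspheres over a thinned skull. The extraction protocol calls the controls uninjured, and the labels do not say whether the injury was the mild or the severe form. Each of the 4 groups was a single library from 1 mouse. Without replicates no p-values are given, and every difference is a difference between libraries. Intervals cover counting error only, not differences between mice.

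Microglia are the resident macrophages of the brain and renew themselves by local division, which depends on signalling through Csf1r. A dividing cell first licenses its replication origins and copies its DNA in S phase, and then builds the spindle, aligns its chromosomes and divides in mitosis. The genes for these steps are switched on in waves, the first by E2F factors and the later one through promoter elements called CHR and CCAAT boxes. RNA counts show which of these genes a cell was using and do not count divisions.

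Promoters of 4 of these genes are shown because the cells were recognised by genes that are switched on together. Each line gives the 150 bases before the start of the gene, from RefSeq on GRCm38.p6, read 5′ to 3′ on the gene's strand. Capitals mark, on either strand, the letters of the CHR (TTTGAA and, as its variant, TTCGAA), those of the CCAAT box, and those of the E2F motif (TTTCCCGC, TTTCGCGC, TTTGCCGC or TTTGGCGC). Cdk1, the kinase that starts mitosis, lies at chr10:69352913-69353062 (- strand). Top2a, which untangles chromosomes, lies at chr11:99024190-99024339 (- strand), and Ube2c, which helps to mark mitotic proteins for destruction, at chr2:164769779-164769928 (+ strand). Hells, a chromatin remodeller of S phase, lies at chr19:38930840-38930989 (+ strand).
Cdk1: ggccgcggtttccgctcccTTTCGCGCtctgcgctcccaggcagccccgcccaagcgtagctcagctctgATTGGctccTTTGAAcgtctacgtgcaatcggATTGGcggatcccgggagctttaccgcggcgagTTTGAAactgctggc
Top2a: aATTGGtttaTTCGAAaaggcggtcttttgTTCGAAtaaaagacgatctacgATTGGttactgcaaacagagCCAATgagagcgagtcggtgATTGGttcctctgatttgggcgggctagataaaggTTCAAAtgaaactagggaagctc
Ube2c: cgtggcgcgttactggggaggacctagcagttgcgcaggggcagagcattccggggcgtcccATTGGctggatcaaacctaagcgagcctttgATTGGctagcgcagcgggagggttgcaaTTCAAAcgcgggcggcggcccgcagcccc
Hells: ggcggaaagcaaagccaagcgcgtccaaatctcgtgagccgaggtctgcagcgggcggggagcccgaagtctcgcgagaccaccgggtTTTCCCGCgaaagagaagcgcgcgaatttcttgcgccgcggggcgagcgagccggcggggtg
Over the whole window, from 250 bases before the start to 50 after it, CHR letters were found in 5 of the 6 genes of the rule, with no match for Birc5. They were found in 19.2% of all 32851 promoter windows and, counted by gene as here, in 21.7% of all 27025 genes. A second mitotic set (Ccna2, Cdca8, Kif11, Nusap1, Tpx2 and Prc1) had them in 3 of the 4 genes matched in the RefSeq table, which were all but Ccna2 and Tpx2. An S phase set (Rrm2, Uhrf1, Clspn, Cdc45, Hells and Tk1) had CHR letters in 1 of 6 genes and E2F letters in 3 of 6. E2F letters were in 1 of the 6 genes of the rule, in 2.26% of all windows and in 2.6% of all genes. CCAAT letters were in 5 of the 6 genes of the rule, 4 of the 6 S phase genes, 37.4% of all windows and 41.1% of all genes. A match is a run of letters and not a measured binding site.

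Il6, the gene that the knockout label names, was detected in all 4 libraries, with 108 UMIs (10.5 CPM, counts scaled to the same total in each library) in the wild-type sham library and 169 (4.47 CPM) in the injured wild type. Under the knockout label it had 351 UMIs (26.4 CPM) after sham surgery and 565 (21.9 CPM) after injury. Which exon was targeted is not stated in the labels. A 3′ count outside a deleted part checks nothing, so these libraries are called knockout-labelled. In cycling microglia Il6 was found in 5 of 95 injured wild-type cells and in 11 of 39 injured knockout-labelled cells. After the filters the libraries held 992 cells in the wild-type sham, 2996 in the injured wild type, 1392 in the sham library of the knockout label and 2638 in its injured library, an order kept below, with median depths of 7801 to 10264.5 UMIs. The sham libraries shared 23 cell barcodes, each deep in 1 library (55170 to 74830 UMIs) and shallow in the other (1011 to 1498 UMIs, a median of 1.95% of the deeper count), whereas other pairs of libraries shared 1 or 2. Of the 5 cycling cells of the wild-type sham library, 2 carried such a barcode on its deep side, and the cycling share and the medians of these cells are given with and without them.

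Cycling cells were more frequent after injury under both labels, and most frequent in the injured wild type. Among Csf1r-positive cells they numbered 5 of 873 in the wild-type sham library (0.573%, exact Clopper-Pearson 95% interval 0.186 to 1.33) and 116 of 2787 in the injured wild type (4.16%, 3.45 to 4.97). In the knockout-labelled libraries they numbered 1 of 1271 after sham surgery (0.0787%, 0.00199 to 0.438) and 43 of 2444 after injury (1.76%, 1.28 to 2.36). The injured wild-type share was 7.27 times the wild-type sham share and 2.37 times the injured knockout-labelled share, and its interval overlapped none of the other 3. The intervals of both sham libraries overlapped each other. Without shared barcodes the wild-type sham library kept 3 of 848 cells (0.354%, 0.073 to 1.03) and the injured wild type 114 of 2782 (4.10%, 3.39 to 4.90).

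The share moved when depth was made equal. Cells of at least 5000 UMIs were thinned to 5000 UMIs, and cells under that depth were left out. Members left out for this numbered 9 in the injured wild type and 6 in the injured knockout-labelled library, so the set of cells changed as well. After thinning, 2 of 669 wild-type sham cells (0.299%) and 57 of 2267 injured wild-type cells (2.51%, 1.91 to 3.25) were cycling. After the same thinning, 0 of 995 knockout-labelled sham cells and 25 of 1995 injured knockout-labelled cells (1.25%, 0.813 to 1.84) were. For the 0 the exact interval reached up to 0.370%, and a limit of 3 counts would be 0.302%. Cycling microglia alone made up 4.27% of microglia by the markers in the injured wild type and 1.76% in the injured knockout-labelled library, and 1.96% (1.33 to 2.79) and 1.17% (0.725 to 1.78) after thinning, when the intervals overlapped. Thinning also removes marker UMIs, so some microglia pass to the other class.

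Gene sets that the rule did not use gave the same order of the libraries. At least 3 genes of the second mitotic set, which encode the mitotic cyclin A2, a passenger complex subunit, a spindle motor and spindle-binding proteins, were found in 4, 78, 1 and 29 Csf1r-positive cells, or 2.80% (2.22 to 3.48) of the injured wild type and 1.19% (0.796 to 1.70) of the injured knockout-labelled library. The S phase set, which includes the nucleotide-making enzymes Rrm2 and Tk1, was found in 3, 60, 1 and 25 cells. After thinning, the second set left 1.32% (0.895 to 1.88) and 0.902% (0.536 to 1.42) of the injured libraries, and the S phase set left 0.926% (0.574 to 1.41) and 0.301% (0.110 to 0.653), and in both sets the intervals overlapped. Nearly all cells of the second set were already members: 1 injured wild-type cell was not. Of the S phase cells, 11 in the injured wild type, 1 in the knockout-labelled sham library and 6 in the injured knockout-labelled library were not members.

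**Figure D1:**
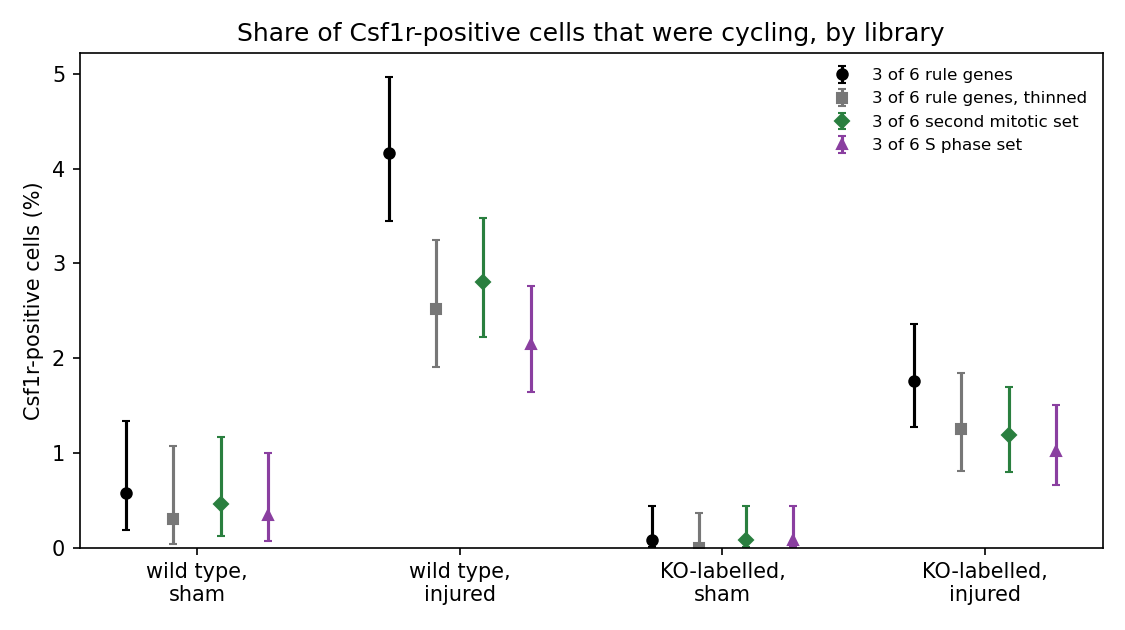
Share of Csf1r-positive cells (y axis, percent) in each of the 4 libraries with at least 3 of 6 genes of the rule, of the rule after thinning to 5000 UMIs, of the second mitotic set and of the S phase set. Points are single libraries and bars exact 95% intervals for counting error; the injured wild type is highest in each set, at 4.16% by the rule.

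Members lay both well inside the rule and at its edge. In the order above, 2, 51, 1 and 17 cells had all 6 genes, 1, 32, 0 and 10 had 3, and 7, 112, 6 and 38 cells had 2 and were left out. The injured wild-type cells with 3 genes had a median of 1207 CPM over 70 mitotic list genes, those with 2 genes 549 CPM, those with none 515 CPM and those with all 6 genes 8211 CPM. Of the 32 edge cells, 15 had no gene of the second mitotic set, as had 89 of the 112 cells just outside. In the injured knockout-labelled library the same medians were 2023, 651, 554 and 8318 CPM.

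Summed S phase and mitotic levels varied widely among the members. Over 47 licensing and replication genes, the injured wild-type cycling microglia spanned 77.0 to 7476 CPM (median 1346) and the injured knockout-labelled ones 78.2 to 7681 CPM (median 1197). Over the 70 mitotic genes they spanned 257 to 16393 CPM (median 3807) and 481 to 15437 CPM (median 5277). At least 3 of the S phase set were found in 45 of 95 and 18 of 39 of these cells, and at least 3 of the second mitotic set in 62 and 28. The ranges of the injured libraries overlapped on both axes. In the injured wild type 3 of the 95 cycling microglia, each with 3 of the rule's genes, lay under the non-cycling medians of 345 CPM (S phase) and 515 CPM (mitotic) on both axes, and in the injured knockout-labelled library 0 of 39 did.

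**Figure D2:**
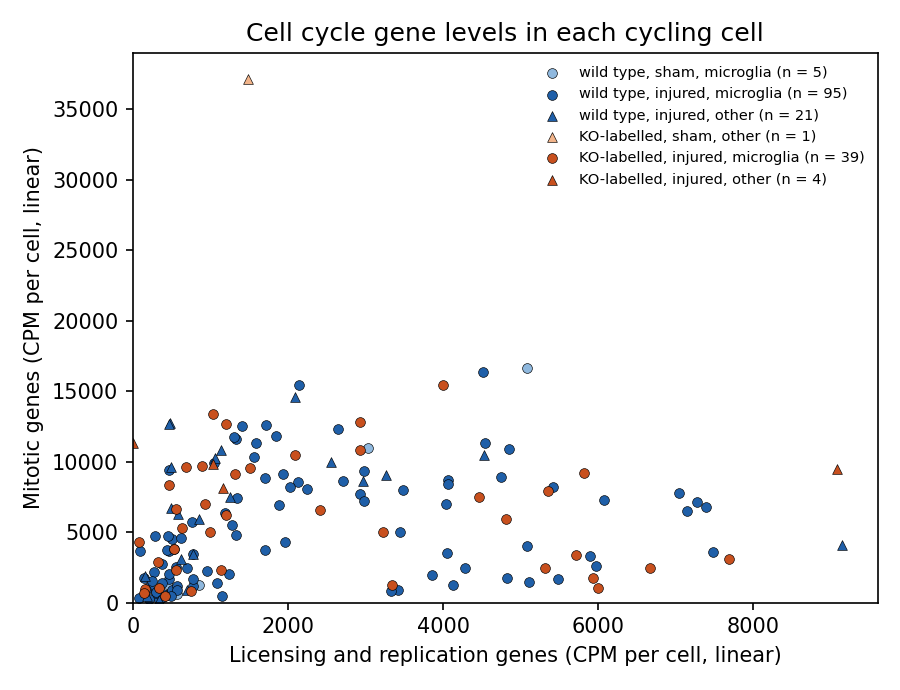
Each cycling cell by its summed licensing and replication genes (x axis, CPM of that cell, linear) and mitotic genes (y axis, CPM of that cell, linear), coloured by library, with circles for microglia by the markers and triangles for other cells. Cells high on the x axis only, on the y axis only and on both occur in both injured libraries. Of the 95 injured wild-type cycling microglia, 3 lie under the medians of non-cycling microglia on both axes. Triangles of the same library also lie there, at 176 and 457 CPM and at 331 and 165 CPM. The single knockout-labelled sham cell lies highest on the y axis at 37147 CPM.

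The sham libraries held few cells, and some went against the label. Of the 5 wild-type sham members, 2 had all 6 genes (mitotic sums of 11003 and 16623 CPM). These had no Sall1 UMI, 307 and 130.4 CPM of P2ry12, and 239 and 86 UMIs of macrophage or monocyte markers, with 56 and 104 UMIs of border-associated macrophage markers against 89 and 53 of microglia markers. The other 3 members were deep cells (31610 to 64094 UMIs) with 11 to 19 Sall1 UMIs, 293 to 634 microglia marker UMIs and mitotic sums of only 624 to 1329 CPM. The only member in the knockout-labelled sham library had 1 Csf1r UMI, 1 microglia marker UMI and 44 UMIs of oligodendrocyte-lineage markers, 18 of them Pdgfra, so its genes go against the name microglia or macrophage.

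The cycling microglia of both injured libraries carried microglia markers, and many in the wild type carried macrophage markers as well. All 9 microglia markers were detected in the cycling microglia of both injured libraries, at a summed 4008 CPM in the wild type and 5668 CPM in the knockout-labelled cells. The 9 include the 4 markers by which these cells were chosen, so their detection is a description and not support for the name. Macrophage or monocyte markers summed to 7921 CPM (9 of 10 detected, mainly the lysozyme gene Lyz2) in the wild type and 1769 CPM (7 of 10) in the knockout-labelled cells. In 34 of 95 wild-type and 2 of 39 knockout-labelled cycling microglia these UMIs outnumbered those of the microglia markers. T or NK cell markers held 2 and 0 UMIs, and erythroid markers 1 and 0. Neutrophil markers held 4129 and 0 UMIs, of which 3728 lay in 1 wild-type cell of 21832 UMIs that Scrublet, a doublet caller, marked. Endothelial markers held 449 and 36 UMIs and mural markers 75 and 2. A wild-type cell of 24010 UMIs that Scrublet did not mark held 427 of the endothelial and 71 of the mural UMIs beside 39 of microglia markers. Scrublet marked 4 members, all in the injured wild type. The number of cells marked in each library was set in advance by an assumed doublet rate, so an unmarked cell is not thereby shown to be single.

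Cycling microglia of the injured libraries were set against microglia of the same library with none of the 6 genes, 1588 in the wild type and 1766 in the knockout-labelled library. Because cell cycle genes chose the members, their differences are a description and have no test. A gene was counted as higher or lower when its log2 ratio, with 10 CPM added on both sides, passed 2-fold, at 20 CPM or more on 1 side and 50 UMIs or more in all. A cycle gene can pass these minimums through the cycling cells alone, so the counts of measured list members below describe them and support nothing. In the wild type 259 of 5734 genes were higher (4.52%) and 36 lower (0.628%), and in the knockout-labelled library 321 of 5922 were higher (5.42%) and 139 lower (2.35%). Of the higher genes 192 were shared, 74.1% of the wild-type and 59.8% of the knockout-labelled list. Of these, 100 were on the cell cycle lists, where sharing follows from how the cells were chosen. On no cell cycle list 92 higher genes were shared, 66.7% of the wild-type and 42.2% of the knockout-labelled ones. Of the lower genes 21 were shared, 58.3% and 15.1%, and 4 genes lower in the wild type were higher in the knockout-labelled library. Cycling microglia were deep, with medians of 21578 UMIs against 8806 in the wild type and 17967 against 8560 in the knockout-labelled library. Ratios of state genes are therefore also given against non-cycling microglia matched in UMIs (3 for each cycling cell, medians 20538 and 18000).

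Genes of the G1 phase differed less than those of later phases. Of 5 measured G1 cyclins and kinases, which carry a cell out of rest, 1 was higher in each injured library. Ccne1, cyclin E1, had 27.9 CPM in wild-type cycling cells against 1.15 in non-cycling ones (log2 1.77). Cdk4, a kinase that works with the D cyclins, had 156 against 72.3 CPM in the knockout-labelled library (log2 1.01). The cyclin D1 gene Ccnd1 had 54.6 against 41.7 CPM in the wild type and 63.5 against 58.9 CPM in the knockout-labelled library, both under 2-fold. Among transcription factors of the cycle, E2f1 had 30.4 against 7.58 CPM (log2 1.20) and 30.03 against 4.16 CPM, while E2f4, which acts in resting cells, had 24.2 against 19.4 and 27.7 against 22.3 CPM.

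Replication genes were higher almost without exception. All 14 measured licensing and firing genes were higher in the wild type and all 13 in the knockout-labelled library, with median log2 ratios of 1.54 and 1.94 beside 0.04 and 0.02 over all genes tested. Mcm7, a subunit of the replicative helicase, had 83.3 against 6.72 CPM in the wild type (log2 2.48), and Mcm5, another subunit, 71.6 against 3.56 CPM in the knockout-labelled library (log2 2.59). Of the replication fork and nucleotide supply genes, 22 of 23 and 19 of 20 were higher. Rrm2, the subunit of ribonucleotide reductase that limits nucleotide supply, had 118 CPM in the cycling microglia of each injured library, in 50 of 95 and 20 of 39 cells, against 0.574 and 0.238 CPM in non-cycling ones. Tyms, which makes thymidylate, had 103 against 7.52 CPM and 174 against 4.16 CPM.

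Mitotic genes were higher in cycling cells in most lists. All measured members of the kinetochore list (15 and 12), the cyclin and mitotic kinase list (16 and 11), the condensin and chromatin list (13 and 12) and the cytokinesis list (8 and 6) were higher, as were 19 of 20 and 18 of 18 spindle genes. Cdca8, of the chromosomal passenger complex, had 136 against 1.78 CPM in the wild type (log2 3.63) and 155 against 0.832 CPM in the knockout-labelled library (log2 3.93). Ccna2, cyclin A2, had 90.01 and 124 CPM in cycling cells and at most 0.345 CPM in non-cycling ones. Stmn1, which destabilises microtubules, was detected in all 95 and all 39 cycling microglia, at 1058 and 1456 CPM against 58.9 and 51.5 CPM. H2afz, a histone variant gene, had 2019 against 445 CPM and 2432 against 425 CPM, and Hmgb2, a chromatin protein, 609 against 114 CPM and 915 against 128 CPM. Of 7 genes of the anaphase-promoting complex and its regulators, 3 were higher in each library, Cdc20, Fbxo5 and Ube2s. The securin gene Pttg1 was among the other 4, at 52.5 against 52.1 CPM in the wild type and 35.8 against 59.5 CPM in the knockout-labelled library, both under 2-fold.

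Several of the highest genes on no cell cycle list were also genes of dividing cells, and 5 of the 10 highest in the wild type were the neutrophil genes Camp, S100a9, Ngp, S100a8 and Lcn2. Pclaf, a partner of the replication clamp, had 209 CPM in 65 of 95 wild-type cycling microglia and 225 CPM in 28 of 39 knockout-labelled ones, against 0.402 and 0.416 CPM in non-cycling cells. Cdca3, which acts at entry into mitosis, had 157 and 150 CPM against 1.55 and 0.356 CPM. Replication histone genes were high in part of the cells, with Hist1h2ap at 185 CPM in 37 of 95 and 90.1 CPM in 14 of 39 cells. Knstrn, a spindle protein gene, had 75.4 and 111 CPM against 1.78 and 1.07 CPM. Ezh2, the histone methyltransferase of Polycomb, had 94.6 and 97.02 CPM against 7.29 and 9.03 CPM and was named after its values were seen.

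Several inhibitors of the cycle were higher in cycling cells too. Of 11 measured genes of the inhibitor and quiescence list 3 were higher in the wild type, and of 10 in the knockout-labelled library 4 were. Cdkn2c, an inhibitor of the G1 kinases, had 119 against 14.7 CPM in the wild type and 146 against 12.8 CPM in the knockout-labelled library. Cdkn2d, of the same family, had 105 against 19.6 and 102 against 14.0 CPM. Cdkn1a, the p53 target that encodes p21, had 438 against 245 CPM in the wild type, under 2-fold, and 641 against 195 CPM in the knockout-labelled library (log2 1.67, and 1.17 against matched cells). Btg2, an antiproliferative gene, had 814 against 1420 CPM and 1265 against 1966 CPM, both under 2-fold.

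State genes differed less than cycle genes, and several differences shrank against cells of like depth. Of 20 homeostatic microglia genes 4 were lower in each library, with medians of -0.61 in the wild type and -0.69 in the knockout-labelled library, which became 0.04 and -0.39 in the matched comparison. P2ry12, the ADP receptor of surveying microglia, had 318 against 713 CPM (log2 -1.14, matched -0.14) in the wild type and 549 against 1249 CPM (log2 -1.17, matched -0.63) in the knockout-labelled library. Lag3, which encodes an immune checkpoint receptor, was low in cycling microglia of both, at 39.6 against 140 CPM (log2 -1.60, matched -0.65) and 86.6 against 280 CPM (log2 -1.59, matched -1.33). Of 24 disease-associated microglia genes 2 and 8 were higher, with medians of 0.37 and 0.59 that became -0.02 and -0.10. Ch25h, a cholesterol hydroxylase gene of this list, kept most of its gap, with 95.02 against 40.1 CPM (log2 1.07, matched 0.99) and 170 against 30.0 CPM (log2 2.17, matched 1.43). Depth moved with these genes, and its part in them was not tested beyond this match.

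Glycolysis genes leaned the same way in both comparisons. The median of 13 measured genes was 0.56 in the wild type and 0.68 in the knockout-labelled library, and 0.45 and 0.43 against matched cells. Gapdh had 2082 against 1148 CPM in the wild type (log2 0.85) and 2683 against 1107 CPM in the knockout-labelled library (log2 1.27). Hk2, the inducible hexokinase, went the other way, with 95.8 against 151 CPM and 91.2 against 212 CPM (log2 -0.61 and -1.13). Only Gapdh and Hk2, both in the knockout-labelled library, passed 2-fold. Of 14 mitogen receptor and signal genes 0 passed 2-fold in the wild type. Igf1 passed it in the knockout-labelled library, where it was higher (166 against 67.1 CPM, log2 1.19, matched -0.03) and so did Pdgfb, which was lower (68.1 against 157 CPM, log2 -1.09, matched -0.74). Csf1r had 876 against 1399 CPM (log2 -0.67, matched -0.03) and 1344 against 2035 CPM (log2 -0.59, matched -0.30). The IL-6 receptor gene Il6ra had 51.3 against 107 CPM (log2 -0.94, matched -0.42) and 70.5 against 146 CPM (log2 -0.96, matched -0.30). Slfn5, an interferon-induced gene, had 35.0 against 89.9 CPM (log2 -1.15, matched -1.18) and 47.4 against 99.4 CPM (log2 -0.93, matched -0.96).

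**Figure D3:**
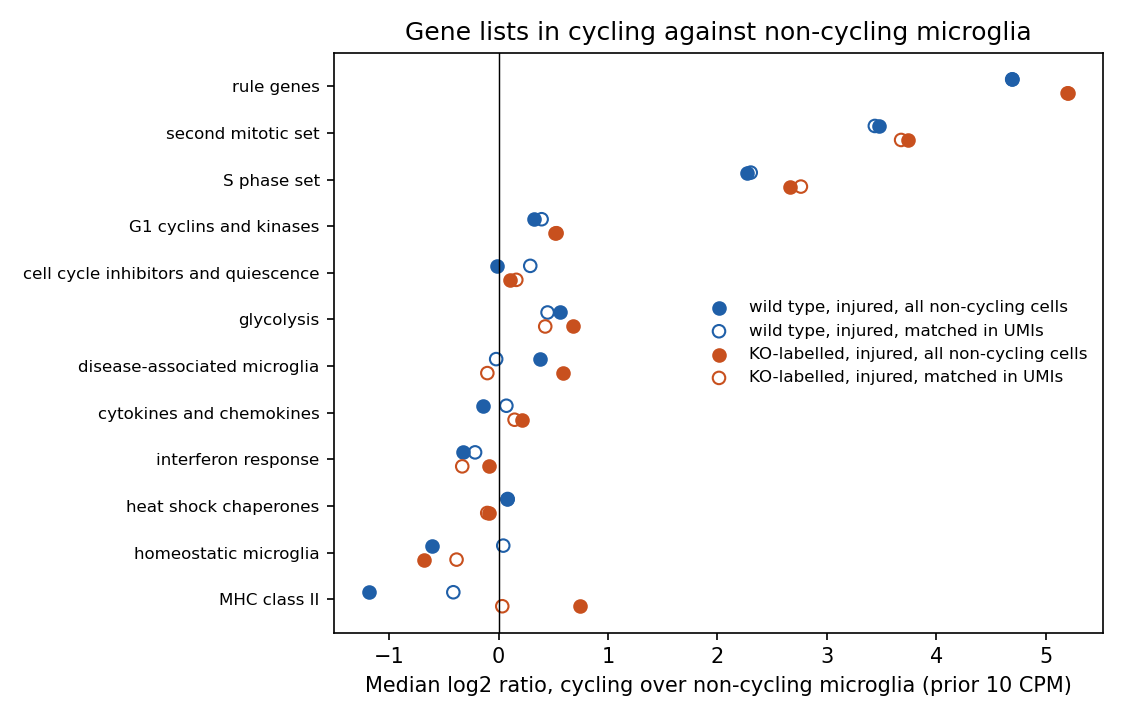
Median log2 ratio (x axis, 10 CPM added on both sides) of cycling over non-cycling microglia for 12 gene lists in the injured wild type (blue) and the injured knockout-labelled library (orange). Filled points use all non-cycling microglia and open points those matched in UMIs. The rule genes, the second mitotic, S phase and G1 lists barely move. The inhibitor and quiescence median goes from -0.01 and 0.11 to 0.29 and 0.16, and the disease-associated median from 0.37 and 0.59 to -0.02 and -0.10.

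A few cells decided some of the largest ratios. In the injured wild type all 624 UMIs of Camp, a neutrophil granule gene, came from 1 of the 95 cycling microglia, which Scrublet marked as a doublet, and 89.4% of the S100a9 UMIs came from 1 cell. Without its highest cell Camp had a log2 ratio of 0 in place of 4.75. Of the genes called higher, 234 of 259 in the wild type and 253 of 321 in the knockout-labelled library stayed past 2-fold when each gene's highest cell was left out.

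MHC class II genes had log2 ratios of opposite sign in the injured libraries, with medians of -1.18 (wild type) and 0.74 (knockout-labelled). Against matched cells these medians were -0.42 and 0.03, and the ratios -1.39 and 0.40 for H2-Aa and -0.76 and 0.01 for Cd74. H2-Aa, an antigen-presenting chain, had 2.92 against 59.1 CPM in the wild type (log2 -2.42) and 373 against 96.6 CPM in the knockout-labelled library (log2 1.84), where 97.8% of its UMIs came from 1 of 39 cells. That cell had 362 UMIs of macrophage or monocyte markers against 44 of microglia markers, with 0 of Siglech and 0 of Tmem119. Its genes go against the name microglia. The invariant chain gene Cd74 had 38.8 against 131 CPM (log2 -1.53) and 626 against 261 CPM (log2 1.23), with 84.9% from 1 cell. Without the highest cell of each gene the ratios of the knockout-labelled library were -2.40 for H2-Aa and -1.24 for Cd74.

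Injured cycling microglia were then compared between the labels, 39 knockout-labelled cells against 95 wild-type cells. Of 5815 genes, 31 were higher (0.533%) and 94 lower (1.62%) in the knockout-labelled cells. Among non-cycling microglia of the same libraries the calls were 2 higher (0.0367%) and 63 lower (1.16%) of 5448 genes. Both comparisons use the same mice, so they are given side by side only.

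The cycle genes themselves differed little between the labels, in cells that cycle genes had chosen on both sides. Over the cell cycle lists 1 gene passed 2-fold, Lig1, the DNA ligase that joins replication fragments, with 30.03 CPM in the knockout-labelled and 70.8 CPM in the wild-type cells (log2 -1.01). Lig1 was 1 of 24 measured replication fork and nucleotide supply genes, while 0 of 18 genes of the cyclin and mitotic kinase list passed. Over all genes tested 0.533% were higher and 1.62% lower. The count of cycle genes is a description. Ube2c had 534 and 295 CPM (log2 0.83), Cdk1 353 and 240 CPM (log2 0.54), and Mki67, the gene of the proliferation antigen Ki-67, 292 and 240 CPM (log2 0.27). Rrm2 had 118 CPM in both. These 3 genes of the rule are a description, since the rule used them.

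Spp1, which encodes osteopontin, was lower in the knockout-labelled cells, cycling or not. In single cycling microglia it ranged from 0 to 132 CPM in the 5 wild-type sham cells, from 0 to 129448 CPM in the injured wild type (median 1927) and from 0 to 19223 CPM in the injured knockout-labelled cells (median 135). It was detected in 1 of 5, 92 of 95 and 27 of 39 cells, and the ranges of the injured libraries overlapped. The summed levels were 3091 CPM in the injured knockout-labelled and 22592 CPM in the injured wild-type cells (log2 -2.87), and 536 and 8298 CPM in non-cycling microglia (log2 -3.93). In the knockout-labelled cycling cells 29.7% of the UMIs came from 1 cell.

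Of 24 measured disease-associated genes 7 were lower and 2 higher in the knockout-labelled cycling cells, with a median of -0.09 beside 0.07 over all genes tested. In non-cycling microglia 7 of these 24 were lower and 0 higher, with a median of -0.31 beside 0.10 over all genes tested. Apoe, the main lipid carrier of the brain, had medians of 854, 40136 and 10059.8 CPM per cell in the wild-type sham, injured wild-type and injured knockout-labelled cycling microglia, and summed levels of 18421 against 46210.4 CPM in the knockout-labelled and wild-type injured cells (log2 -1.33). Without the 2 shared barcodes the sham median was 15515 CPM, over 3 cells. Gpnmb, a glycoprotein of lysosomes, had 194 and 1314 CPM (log2 -2.70), and Fabp5, a fatty acid binding protein, 256 and 1725 CPM (log2 -2.70). The growth factor gene Igf1 had 166 and 547 CPM (log2 -1.66). Cd5l, a scavenger receptor family gene of macrophages, had 1 UMI in 1 of 39 knockout-labelled cells and 822 UMIs in 42 of 95 wild-type cells, and in non-cycling microglia 14.1 and 221 CPM. The 2 higher genes were Ccl6 (626 and 230.04 CPM) and Ank (188 and 81.3 CPM), and both passed under 2-fold without their highest cells (log2 0.93 and 0.92).

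Markers of macrophages and monocytes were lower in the same cells. Lyz2 had 1694 CPM in the knockout-labelled and 7586 CPM in the wild-type cycling microglia (log2 -2.16), and 1778 and 7910 CPM in the non-cycling ones. Ms4a7 had 32.3 and 163 CPM (log2 -2.03). Folr2, a folate receptor gene of border macrophages, had 12.7 and 94.6 CPM (log2 -2.20). As given above, 34 of 95 wild-type but 2 of 39 knockout-labelled cells had more macrophage or monocyte than microglia marker UMIs, and the part of these cells in the Spp1, Apoe and Cd5l ratios was not tested. Homeostatic genes leaned the other way, with a median of 0.58 over 20 genes beside 0.07 over all genes, and 1 of the 20 past 2-fold: Selplg, a selectin ligand, at 947 and 383 CPM (log2 1.28). In non-cycling microglia their median was 0.55 beside 0.10 over all genes, with 0 of the 20 past 2-fold. In the cycling cells P2ry12 had 549 and 318 CPM (log2 0.77). P2ry12 had 549 and 318 CPM (log2 0.77).

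Of the 31 higher genes (0.533% of all tested), 4 were on the cytokine and chemokine list and 7 on the MHC class II list. Of 16 measured cytokine and chemokine genes 4 were higher and 1 lower, with a median of 0.30 beside 0.07 over all genes tested. Ccl5, a T cell chemokine, had 134 and 28.8 CPM (log2 1.89) and was found in 6 of 39 and 17 of 95 cells. Ccl12, a monocyte chemokine, had 434 and 152 CPM (log2 1.46), and Ccl9 343 and 136 CPM (log2 1.27). In the knockout-labelled cells 1 cell held 37.1% of the Ccl5 UMIs, and 1 cell held 36.2% of those of Ccl12. Without the highest cell of each gene their log2 ratios were 1.67 and 1.02. All 7 measured MHC class II genes, of 10 on the list, were higher, with a median of 3.47 that became 0.95 without the highest cell of each gene. Such a gene can pass the minimums through the knockout-labelled cells alone, so this count is a description. H2-Aa did so, with 97.8% of its knockout-labelled UMIs in 1 cell. That cell had 362 macrophage or monocyte marker UMIs against 44 of microglia markers, so its genes go against the name microglia. H2-DMa, which loads the class II groove, had 282 and 113 CPM (log2 1.24) and was spread over 33 of 39 and 81 of 95 cells. The neutrophil genes S100a9, S100a8, Camp and Ngp had 0 UMIs in the 39 knockout-labelled cells. All wild-type UMIs of Camp and Ngp and 89.4% of those of S100a9 came from 1 cell. Without the highest cell of each gene the log2 ratios were -3.12 for S100a9, -3.01 for S100a8 and 0 for Camp and Ngp. The S100a9 UMIs that remained again lay mainly in single wild-type cells, with 141 in 1 cell and 41 in another, neither of them marked as a doublet.

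**Figure D4:**
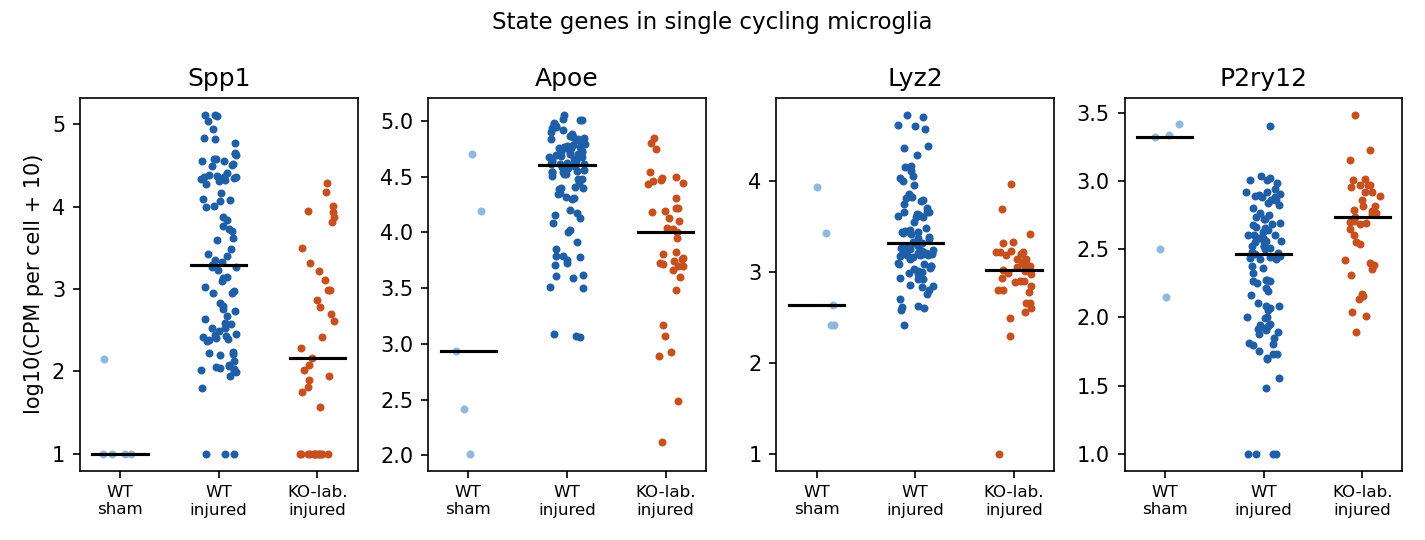
Levels of Spp1, Apoe, Lyz2 and P2ry12 in each cycling microglial cell (y axis, log10 of CPM + 10) in the wild-type sham (5 cells), injured wild-type (95) and injured knockout-labelled (39) libraries. Lines are medians; Spp1, Apoe and Lyz2 have higher medians in the injured wild type than in the injured knockout-labelled cells, with wide overlap between cells. Without the 2 sham cells of shared barcodes the sham medians change from 854 to 15515 CPM for Apoe, 421 to 2673 for Lyz2 and 2120 to 307 for P2ry12, and for Spp1 stay at 0.

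**Figure D5:**
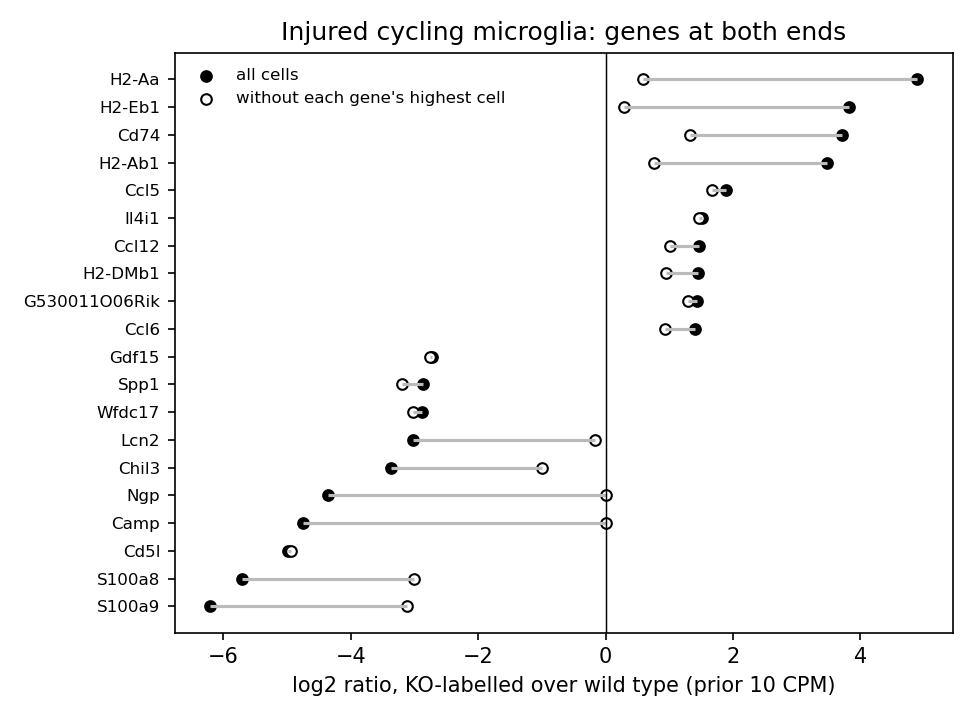
Log2 ratio of injured knockout-labelled over injured wild-type cycling microglia (x axis, 10 CPM added on both sides) for the 10 highest and 10 lowest called genes on no cell cycle list, with all cells (filled) and without the highest cell of each gene on both sides (open). H2-Aa goes from 4.89 to 0.58 and Camp from -4.76 to 0, whereas Spp1 goes from -2.87 to -3.19.

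Because Spp1 differed so widely, cycling shares were also read within bands of Spp1, a choice made after seeing the data, in cells thinned to 5000 UMIs. In the injured wild type 13 of 534 cells with no Spp1 UMI were cycling (2.43%, 1.30 to 4.13), 22 of 1013 with 1 to 9 UMIs (2.17%, 1.37 to 3.27) and 22 of 720 with 10 or more (3.06%, 1.92 to 4.59). In the injured knockout-labelled library the shares were 9 of 1530 (0.588%, 0.269 to 1.11), 12 of 360 (3.33%, 1.73 to 5.75) and 4 of 105 (3.81%, 1.05 to 9.47). The wild-type bands overlapped each other, whereas the knockout-labelled band without Spp1 lay below both the wild-type band without Spp1 and its own band with 1 to 9 UMIs. Within the Spp1-positive bands the intervals of both libraries overlapped.

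The other cycling cells were 21 in the injured wild type and 4 in the injured knockout-labelled library, and were mixed. Of the 21, 16 had more macrophage or monocyte than microglia marker UMIs and 5 had under 5000 UMIs, with 1 cell in both counts and 1 in neither. In 3 of the 21, dendritic cell markers held more UMIs than microglia markers. Among these, 1 cell had 33 dendritic cell marker UMIs against 19 of macrophage or monocyte markers, with 170 of H2-Aa, so its genes go against the name macrophage. Of the 4 knockout-labelled cells, 3 had 1409 to 1928 UMIs, and the remaining cell had 438 macrophage or monocyte marker UMIs. Against the 95 cycling microglia of the injured wild type, the 21 cells had 98 of 5635 genes higher (1.74%) and 264 lower (4.69%), of which 48 and 249 stayed past 2-fold without the highest cell of each gene.

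Over the 6 genes of the second mitotic set 0 passed 2-fold, and over 13 glycolysis genes likewise 0. Of 20 homeostatic genes 12 were lower, of 6 MHC class II genes 5 were higher, and the 24 disease-associated genes gave 2 calls in each direction. The homeostatic list holds genes of the rule that parted the classes, such as P2ry12, so part of its count was set by that rule. An MHC class II gene can pass the minimums through the other cycling cells alone, as H2-Aa did. Both counts are a description. Ccna2 had 152 CPM against 90.01 in cycling microglia. Ribonucleotide reductase subunit Rrm1 had 43.3 against 97.5 CPM and Lig1 27.8 against 70.8 CPM, the 2 fork genes called lower. Lyz2 had 21547 against 7586 CPM, the monocyte chemokine receptor gene Ccr2 176 against 2.08 CPM in 7 of 21 and 5 of 95 cells, and S100a4 303 against 7.92 CPM in 5 of 21 cells. H2-Aa had 1577 against 2.92 CPM but came from 6 of 21 cells, 1 of which held 49.2% of its UMIs. P2ry12, a gene of the rule that parted the classes, had 12.4 against 318 CPM. Sparc, a matrix protein gene that was not used, had 238 against 1532 CPM. The inflammatory genes Ccl4 (380 against 2683 CPM), Tnf (68.03 against 445 CPM) and Jun (158 against 1083 CPM) were lower as well. Spp1 (23768 against 22592 CPM) and Apoe (50219 against 46210.4 CPM) were near in summed level, though 1 cell held 52.3% of the Spp1 UMIs of the other cycling cells.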

How the data were processed

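The deposited files hold raw counts, UMIs per gene and cell barcode for 32285 gene rows, which the submitters' processing notes credit to Cell Ranger 6.0.1 and the mm10 build. The labels state no annotation release. Deposited barcodes numbered 2682 to 4731 and UMIs 15222380 to 40336067 a library. Cells with at least 500 genes, 1000 UMIs and at most 10% mitochondrial UMIs were kept. Counts were summed over cells of a class in a library and scaled to the total of those cells (CPM). Ratios used a prior of 10 CPM, and at least 20 cells a side. Gene groups came from 37 lists. Doublets were taken as the cells with the highest Scrublet scores (scanpy 1.11.5). Their number in each library was set by an assumed rate of 0.8% per 1000 cells kept. They were kept in the values reported and left out in an alternative. The scripts ran on Python 3.11.15 with numpy 2.4.6, scipy 1.17.1, pandas 2.3.3 and matplotlib 3.10.9, and were tested on simulated data. Genes were named as the genes of the rule and the other cycle sets, the members of each list with the largest ratios or needed to order the account by role, the 10 highest and 10 lowest called genes on no cell cycle list, and Il6 and Csf1r. The members and lists were chosen with earlier results of these data known. Exact intervals (95%) cover counting error only, and a count of 0 was given a limit of 3 counts.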

Additional observations from a re-analysis of the deposited data

Results flagged for a closer look

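H2-Aa, H2-Ab1, H2-Eb1 and Cd74, all MHC class II genes, were lower in cycling than in non-cycling microglia of the injured wild type and higher in the injured knockout-labelled library. Their log2 ratios were -2.42 and 1.84 for H2-Aa, -1.38 and 1.35 for H2-Ab1, -1.88 and 1.18 for H2-Eb1, and -1.53 and 1.23 for Cd74. The difference between the libraries was not tested, since each is 1 mouse. Without the highest cell of each gene the knockout-labelled ratios were -2.40, -1.29, -2.27 and -1.24. The highest knockout-labelled cell for H2-Aa had 362 macrophage or monocyte marker UMIs against 44 of microglia markers. Against matched cells the ratios were -1.39 and 0.40 for H2-Aa, -0.58 and 0.00 for H2-Ab1, -1.0 and -0.21 for H2-Eb1, and -0.76 and 0.01 for Cd74.

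Cells without a Csf1r UMI were outside the rule, yet 4 of 209 in the injured wild type and 5 of 194 in the injured knockout-labelled library had at least 3 of the 6 genes of dividing cells, against 0 of 119 and 0 of 121 in the sham libraries. They held 1249 to 13163 UMIs. The deepest, in the injured wild type, had 271 UMIs of H2-Aa and 12 of dendritic cell markers.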

How the results depend on the processing

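No paired analysis was possible because each group was 1 library. Of the values of single named genes under the alternatives, 1471 kept their sign and side of 2-fold (per-cell medians moved by at most 1.5 times), 3 medians of the sham cells moved further without shared barcodes, 25 no longer passed 2-fold, 1 newly passed it and 14 changed sign or went to 0. With at least 2 of the 6 genes, cycling shares were 1.37%, 8.18%, 0.551% and 3.31% in the order used above, and with at least 4 the injured wild type had 3.01%. Thinned to 5000 UMIs the injured shares were 2.51% and 1.25%, and that of the knockout-labelled sham library 0. Thinned to 3000 UMIs the injured shares were 2.06% and 0.694%. With the second mitotic set as the rule the injured shares were 2.80% and 1.19%, and with 2 Csf1r UMIs the knockout-labelled sham share was 0. Among microglia by the markers, thinning gave 0.164%, 1.96% and 1.17% in the wild-type sham and injured libraries, and 0 for other knockout-labelled sham cells. At least 2 genes of the second set were in 3.52% of injured wild-type cells, and thinning left 1.32% there and 0 in the knockout-labelled sham library. At least 2 of the S phase set gave 3.62% and 1.76% in the injured libraries and 0.551% in the knockout-labelled sham library, and thinning of that set gave 0, 0.926%, 0 and 0.301%. For cycling over non-cycling microglia, genes lower in the wild type numbered 138 with every cell weighted equally, 88 with a prior of 1 CPM, 57 without each gene's highest cell and 15 against matched cells. In the knockout-labelled library they numbered 295 with that prior, 253 without the highest cell and 54 against matched cells. Of the called genes, 87.8% were higher in the wild type (69.8% with equal weights), and 69.8% in the knockout-labelled library (48.2% without the highest cell, 80.6% matched). Between the labels, higher genes numbered 69 with a prior of 1 CPM, 50 with no minimum and 19 without the highest cell, and lower ones 161 with that prior. For other over cycling microglia, higher genes numbered 334 with equal weights, 162 with a prior of 1 CPM, 204 with no minimum, 54 with Sall1 or Siglech as the marker and 40 without the highest cell, and lower ones 485, 141 and 494 with that prior, those markers and no highest cell. There 27.1% of the calls were higher (52.1% with equal weights, 7.49% without the highest cell). Without the highest cells the median over all tested genes was -0.12, not 0.02, in the knockout-labelled comparison with non-cycling cells, and -0.22, not 0.01, here. The cause of these shifts was not tested. CHR letters as TTTGAA alone were in 17.9% of windows. The sign changes were in the neutrophil genes Camp, Ngp and Lcn2. Camp and Ngp in the wild type over non-cycling cells became -0.00867 and -0.0259 without Scrublet doublets, and 0 and -0.0165 without the highest cell. Between the labels and for other over microglia, both became 0 under each of these alternatives, and Lcn2 became 0.12 and 0.21 without doublets. Leaving out the highest cell, leaving out shared barcodes, other cells of at least 5000 UMIs, thinning within the classes and the Spp1 bands were chosen after seeing the data.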
